A study of Rhinolophus ferrumequinum with 8 samples.

Results

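Spleens of greater horseshoe bats (Rhinolophus ferrumequinum) taken in torpor were compared with spleens of bats that had left torpor, all collected in November. The comparison used 6 of the 8 spleen libraries of the series, chosen by their state labels alone: 2 torpor libraries against the 2 arousal and 2 winter active libraries pooled into 1 group of 4. Arousal bats were sampled 2 h after capture and winter active bats 26 h after capture, and both states are together called rewarmed below, although the labels give no body temperature. All bats were wild females, each state had 2 biological replicates, and whole spleen was the source of total RNA. Neither age, hour of day, nor whether a library held 1 bat or several is given in the sources used here. The remaining 2 libraries, from summer active bats in July, were left out of the test and are given as a reference level.

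Torpor is the phase of hibernation in which body temperature and metabolic rate are held low, and transcription and translation are largely held back in the cold. During an arousal the animal rewarms within hours with heat from brown fat and shivering, and transcription resumes while RNAs with different lifetimes are replaced at different rates. The spleen filters blood and recycles red cells, stores lymphocytes and platelets, and in many hibernators exchanges leukocytes with the circulation as the animal cools and rewarms.

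No gene passed the test. Among 13542 genes with a mean value of at least 1 over the 8 libraries, limma called 0% higher and 0% lower in rewarmed than in torpor spleen (Benjamini-Hochberg adjusted p under 0.05; smallest adjusted p = 0.105). At an unadjusted p under 0.05 there were 1903 genes higher (14.1% of those tested) and 861 lower (6.36%). In 2721 genes (20.1%) all 4 rewarmed libraries lay above both torpor libraries, and in 1688 (12.5%) all 4 lay below. These shares are the background for every count below. Values are rescaled TPM as the authors deposited them, and every difference is rewarmed minus torpor in log2(value + 1), a scale on which low genes move by less than their true ratio. The median difference over all genes was 0.10, with 58.2% of genes above 0 and 41.8% below. With only 15 ways of choosing 2 libraries of 6, a two-sided exact permutation test of a single gene cannot go below p = 0.0667.

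The balance of higher to lower genes depended on how libraries were scaled. Of the genes without overlap, 61.7% were higher in rewarmed spleen with the deposited values, 46.8% after median-of-ratios rescaling, 43.9% after quantile normalization, and 91.1% when each column was set to a total of 1000000. That last scaling moved the median of all genes from 0.10 to 0.35. Column totals of the 6 libraries ran from 745098 to 998271 and were highest in the 2 torpor libraries. Replicates correlated at 0.937 (arousal), 0.959 (torpor) and 0.959 (winter active) across log2 values of the genes tested. Torpor 1 and arousal 2 stood apart in transcripts typical of other cell types and organs, as described under the marker genes, so medians are also given with each library left out.

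The gene with the smallest p was MIER3, of a family of transcriptional corepressors that bind histone deacetylases. Its values were 1.30 and 1.49 in torpor, 7.10 and 7.66 in arousal, and 5.83 and 6.70 in the winter active state, a mean of 6.82 ± 0.773 (SD, n = 4) against 1.40 ± 0.13 (n = 2). The log2 difference was 1.70 (SE 0.20, limma adjusted p = 0.105), and the summer libraries, at 1.66 and 2.95, lay below all 4 rewarmed ones. HIPK3, a homeodomain-interacting protein kinase, stood at 13.3 and 15.4 in torpor, 59.6 and 67.2 in arousal, and 40.7 and 58.9 at 26 h. It was 3.94 times as high in rewarmed spleen, and summer spleen, at 28.2 and 27.0, fell between the groups.

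JAG1, a ligand of Notch receptors, had values of 6.15 and 6.62 in torpor against 22.5, 19.0, 17.6 and 18.8 in the rewarmed libraries. ADGRF5, an adhesion G protein-coupled receptor of endothelium, stood at 8.46 and 8.41 in torpor and between 21.1 and 25.9 in the rewarmed libraries, while its summer values of 12.5 and 5.32 straddled the torpor level. CREBRF, a negative regulator of the transcription factor CREB3, stood at 4.60 and 3.79 in torpor, 16.1 and 16.9 in arousal, and 11.1 and 15.4 at 26 h. In each of these genes the lowest rewarmed library was more than double the highest torpor library. PDP2, a phosphatase that activates pyruvate dehydrogenase, stood at 2.36 and 1.49 in torpor and between 7.03 and 10.1 in rewarmed spleen, where its mean was 4.38 times as high. The other genes taken by the same rule were CCDC126, ENC1 (an actin-binding Kelch protein), HYCC2, SHISAL1, RSBN1 and ZBTB1 (a zinc finger factor required for lymphocyte development), with log2 differences of 1.33, 1.45, 1.57, 1.68, 1.37 and 1.35. All 12 had a limma adjusted p of 0.105.

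Among the 11 genes described at the lower end, TAF1D, a subunit of the RNA polymerase I selectivity factor, stood at 62.5 and 58.7 in torpor, 28.1 and 25.5 in arousal, and 19.4 and 19.2 at 26 h. The log2 difference was -1.37 (SE 0.20, limma adjusted p = 0.105), and the 2 later libraries were the lowest. CREB3, the membrane-bound factor that CREBRF opposes, stood at 183 and 202 in torpor and between 109 and 124 in the rewarmed libraries, close to the summer values of 125 and 117. ATP5MK, a small subunit of ATP synthase, stood at 119 and 122 in torpor against 67.4, 73.3, 51.8 and 58.4. Torpor and summer values overlapped for ATP5MK, whose summer levels were 124 and 116.

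Proliferation genes made up another share of the lower end. CCNB2, a mitotic cyclin, stood at 11.0 and 10.8 in torpor, 4.60 and 3.65 in arousal, and 4.85 and 5.40 at 26 h, with summer at 20.7 and 40.7. DTYMK, which makes dTDP for DNA synthesis, stood at 48.3 and 44.4 in torpor and between 17.3 and 25.0 in rewarmed spleen. The kinetochore gene SKA3 and the ubiquitin-conjugating enzyme UBE2T, which acts in DNA crosslink repair, differed by -1.01 and -0.96. For all 4 genes both summer libraries lay above both torpor libraries, so torpor held the middle level of the 3.

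Of these 11 genes, AHSP and GNLY differed most, by -3.79 and -2.10. GNLY, a cytolytic granule protein, stood at 38.9 and 28.1 in torpor, 7.33 and 10.5 in arousal, and 6.53 and 4.45 at 26 h, a mean 4.65 times as high in torpor. AHSP, the chaperone of alpha globin, stood at 65.4 and 23.3 in torpor against 0.633, 1.10, 7.21 and 1.56 in the rewarmed libraries, with summer spleen at 2514 and 3548. In whole tissue, fewer cells of a type and less RNA per cell cannot be told apart. TRAPPC2 (a vesicle tethering subunit) and TMEM120A completed these genes, with differences of -1.10 and -0.82. In none of the 12 higher and 11 lower genes did the difference change sign under any other setting in which the gene was tested. The rule took only genes without overlap between the groups, so leaving out a library could not turn their sign.

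**Figure D1:**
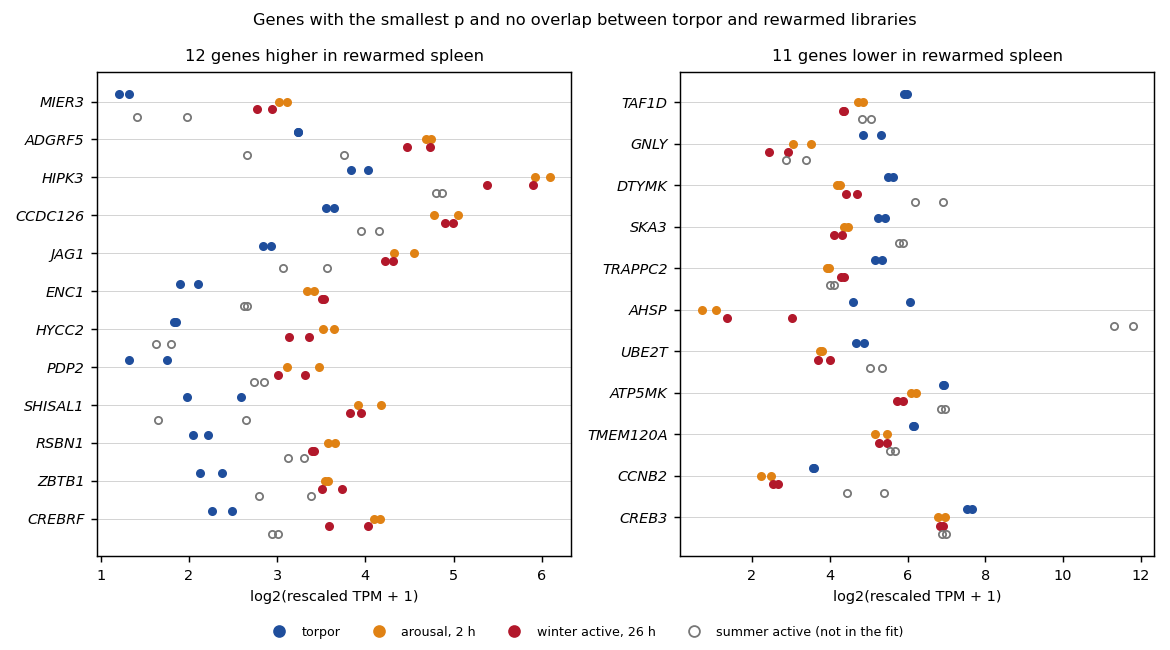
Levels of 12 genes higher and 11 lower in rewarmed spleen that the naming rule took, 1 point per library, on a log2(rescaled TPM + 1) axis; blue points are torpor, orange arousal, red winter active and open grey summer active. In every gene the 4 rewarmed points lie on one side of both torpor points; AHSP in summer, at 2514 and 3548, lies far to the right.

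Related genes were then read as 39 lists by function, by how many of their tested members were higher or lower, how many did not overlap between groups, and their median difference beside the 0.10 of all genes. No member of any list passed the test, so the verbs below describe position only.

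Hormone-responsive and fasting-responsive transcripts lay higher after torpor. Glucocorticoid-induced genes, which the adrenal stress hormones switch on, were higher in 17 of 18 members, without overlap in 8, with a median of 0.73. The median ran from 0.62 without arousal 2 to 1.11 without torpor 1. ZBTB16, a zinc finger factor and classical glucocorticoid target, stood at 2.12 and 2.24 in torpor, 9.33 and 25.3 in arousal, and 17.2 and 9.63 at 26 h (log2 difference 2.25, SE 0.40, limma adjusted p = 0.105). FKBP5, the cochaperone that restrains the glucocorticoid receptor, stood at 91.4 and 96.0 in torpor and between 153 and 213 in the rewarmed libraries. FAM107A and KLF9, another target, differed by 1.22 and 1.95. KLF9 stood at 4.78 and 3.24 in torpor and at 9.67, 28.5, 20.1 and 19.3 afterwards, near its summer values of 16.0 and 23.3. TSC22D3, the leucine zipper protein GILZ, did not follow, with torpor at 275 and 123 against 229 to 306, and its difference of 0.53 turned to -0.046 without torpor 2. TAT is both a glucocorticoid target and a liver enzyme, and its 282 in arousal 2 came with the hepatocyte transcripts of that library.

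FOXO factors and genes induced in starvation were higher in 19 of 23, without overlap in 10 and none below, with a median of 0.45 (0.38 without arousal 2 to 0.69 without torpor 2). INSR, the insulin receptor, stood at 1.03 and 1.32 in torpor against 5.21, 5.75, 3.59 and 4.64. FBXO32, the ubiquitin ligase atrogin-1, stood at 3.47 and 5.75 in torpor and between 11.4 and 16.5 in the rewarmed libraries (log2 difference 1.41, SE 0.24, limma adjusted p = 0.105). FOXO3 itself, chosen after its values were seen, stood at 2.97 and 6.21 in torpor, 19.3 and 21.7 in arousal, and 11.1 and 14.1 at 26 h. FOXO1 and FOXO4, chosen likewise, differed by 0.54 and 0.89. TXNIP, a thioredoxin-binding FOXO target, stood between 839 and 1060 in all 6 libraries, and its difference of 0.11 changed sign after median-of-ratios rescaling.

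Core clock genes, which generate the daily rhythm of transcription, were higher in 17 of 22, without overlap in 10 and lower without overlap in 1, with a median of 0.56 (0.27 without torpor 2 to 0.76 without torpor 1). PER1, a repressor of the loop and also a glucocorticoid target, stood at 8.15 and 6.78 in torpor against 15.6, 16.4, 21.2 and 13.1. RORA, an activator of BMAL1, stood at 1.24 and 1.18 in torpor and between 2.84 and 4.32 afterwards. NR1D2, a REV-ERB repressor, stood at 18.9 and 15.2 in torpor and between 26.5 and 34.1 afterwards. Its paralogue NR1D1 was the exception, at 23.0 and 31.0 in torpor and at 11.8, 21.9, 22.6 and 20.5 in rewarmed spleen, below torpor in all 4. PER2 differed by 0.61 and BMAL1 by 0.34, the latter with torpor libraries of 10.7 and 3.72 that enclosed the rewarmed range of 6.85 to 11.1 almost whole. Without torpor 2, BMAL1 differed by -0.31.

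Immediate early genes, whose transcripts appear within minutes of a stimulus, were higher in 22 of 26, without overlap in 9, with a median of 0.41 (0.28 to 0.60 with each library left out). BTG2, an antiproliferative gene that p53 also induces, stood at 7.29 and 3.69 in torpor, 38.8 and 21.8 in arousal, and 35.3 and 24.8 at 26 h, a mean 5.50 times as high. ZFP36L1, which promotes decay of AU-rich mRNAs, stood at 50.4 and 47.6 in torpor and between 113 and 215 afterwards. DUSP1, a phosphatase of MAP kinases, stood at 73.8 and 43.2 in torpor against 133, 121, 134 and 111. JUN and EGR1 differed by 0.69 and 0.76 without overlap. FOS, the prototype of the class, stood at 5.20 and 4.99 in torpor and between 2.15 and 5.37 in rewarmed spleen, a difference of -0.40 with overlapping groups.

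**Figure D2:**
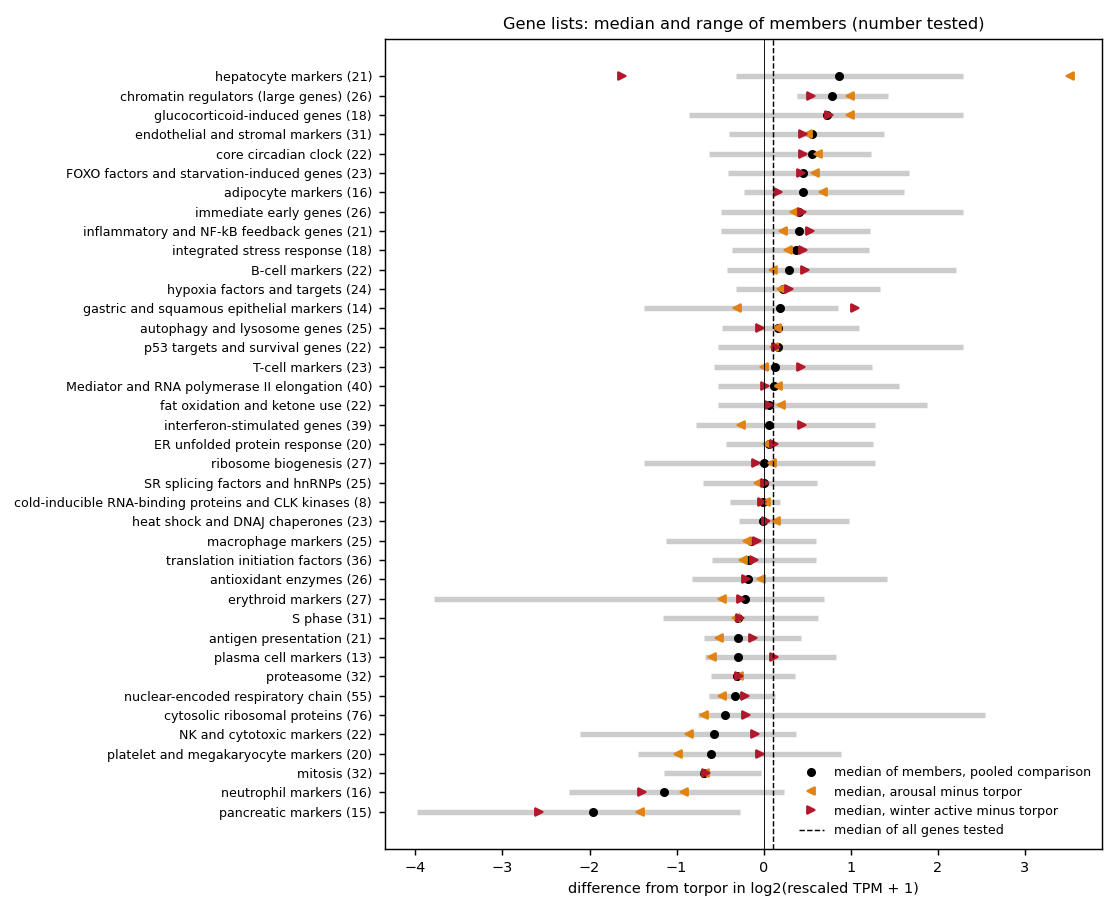
Median log2 difference from torpor of the tested members of each of the 39 lists (black points; grey bars span the lowest to the highest member), with the medians of arousal (orange) and winter active (red) against torpor; the dashed line is the median of all genes, 0.10. Lists with medians near 0, among them splicing factors (0.0016), heat shock (-0.0074) and cold-inducible genes (-0.0054), changed sign with the scaling, whereas glucocorticoid-induced genes (0.73) and mitosis genes (-0.69) did not.

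Stress pathways gave unlike counts. Integrated stress response genes, which follow phosphorylation of the initiation factor eIF2, were higher in 14 of 18, without overlap in 6, with a median of 0.38 (0.30 to 0.41 with each library left out). EIF2AK3, the eIF2 kinase PERK, stood at 9.51 and 9.08 in torpor and between 18.6 and 23.5 afterwards (log2 difference 1.04, SE 0.17, limma adjusted p = 0.105). DDIT3, the factor CHOP, stood at 17.0 and 6.45 in torpor against 24.6, 30.3, 24.8 and 23.4, and CEBPG differed by 0.78. Genes of the unfolded protein response of the endoplasmic reticulum were divided, 4 of 20 lying higher and 5 lower without overlap. ERN1, the stress sensor IRE1, stood at 3.92 and 3.87 in torpor and between 9.51 and 11.6 in rewarmed spleen, whereas the chaperone DNAJB11 stood at 80.9 and 86.2 in torpor and between 57.1 and 66.5. The median of that list, 0.056, changed sign after median-of-ratios rescaling.

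Heat shock and cold-inducible genes showed little common movement. Of 23 heat shock and DNAJ chaperones, 3 were higher and 2 lower without overlap, shares below the background of 20.1% and 12.5%. DNAJB4 stood at 21.2 and 19.4 in torpor and between 31.2 and 47.9 afterwards, and HSF2, a heat shock factor, at 7.70 and 4.80 against 11.9 to 14.3. The inducible and constitutive chaperones HSPH1, HSPA8 and DNAJB1 differed by 0.19, 0.21 and 0.37, each with overlapping groups, and HSPH1 and HSPA8 changed sign when 1 torpor library was left out. CIRBP, a cold-inducible RNA-binding protein, stood at 385 and 301 in torpor and between 231 and 300 in rewarmed spleen. RBM3, the other well-known one, stood at 498 and 462 in torpor against 313, 464, 470 and 459, and its difference of -0.19 turned to 0.088 with column totals of 1000000. The CLK kinases that regulate splicing with temperature differed by 0.18 (CLK1), 0.19 (CLK2) and 0.091 (CLK4). CLK1 stood at 137 and 61.0 in torpor and between 95.2 and 114 afterwards, and its difference was 0.76 without torpor 1 and -0.39 without torpor 2. CLK4 changed sign after median-of-ratios rescaling and after quantile normalization. Splicing factors had 4 of 25 higher and 6 lower without overlap, with HNRNPA1 at 202 and 170 in torpor and between 107 and 126 afterwards.

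Hypoxia factors and their targets were higher in 18 of 24, without overlap in 7, with a median of 0.23. EPAS1, the factor HIF-2 alpha, stood at 61.7 and 115 in torpor and at 161, 165, 208 and 182 afterwards. FUT11 and the demethylase KDM3A, both hypoxia-induced, differed by 1.34 and 0.84. The glycolytic targets ALDOA and ENO1, chosen after their values were seen, lay lower without overlap, by -0.31 and -0.29. Antioxidant genes were lower in 15 of 26 with a median of -0.18 that turned positive with column totals of 1000000. Their regulator NFE2L2 (NRF2) stood at 47.2 and 25.5 in torpor against 111, 83.4, 81.0 and 107, while thioredoxin TXN and peroxiredoxin PRDX2 differed by -0.61 and -0.56. HMOX1, the heme-degrading enzyme of red cell recycling, overlapped widely (1579 and 2316 in torpor, 952 to 2886 in rewarmed spleen). Of fuel genes, PDK4, which blocks pyruvate dehydrogenase, stood at 81.7 and 67.9 in torpor, 239 and 157 in arousal, and 103 and 119 at 26 h, opposite in action to PDP2 but higher with it. The fat oxidation list as a whole had a median of 0.066. Of autophagy and lysosome genes, 5 of 25 were higher and 3 lower without overlap, with log2 differences of 1.10 for ATG14, which starts autophagosome formation, and -0.48 for the lysosomal protease CTSD.

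Transcripts of the basic growth machinery lay lower. Cytosolic ribosomal protein genes were lower in 75 of 76 members, without overlap in 28, with a median of -0.44 that ran from -0.58 to -0.31 with each library left out and came nearest to 0, at -0.06, after quantile normalization. RPL9 stood at 24.7 and 27.6 in torpor and between 12.5 and 18.5 in rewarmed spleen, and RPL37 at 241 and 224 against 145 to 184. The lone member above 0 was RPL4, chosen after its values were seen, which stood at 32.4 in torpor 1 and 1983 in torpor 2. Reads of these genes can be split with their many processed copies, so single values are uncertain. The list differed more from torpor in arousal (median -0.69) than at 26 h (-0.20), and the levels of winter active 1 and both torpor libraries were close.

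Nuclear-encoded respiratory chain subunits, of which 55 of 75 were tested and the others not analysed here, were lower in 51, without overlap in 26, with a median of -0.33 (-0.46 to -0.26 with each library left out). ATP5PF, of ATP synthase, stood at 453 and 433 in torpor and between 270 and 334 afterwards. NDUFB4, of complex I, stood at 48.5 and 41.6 in torpor and between 26.5 and 36.6 afterwards. Proteasome subunits were lower in 29 of 32, without overlap in 13, with a median of -0.30 (-0.44 without torpor 2 and -0.17 without torpor 1). PSMD6, of the regulatory particle, stood at 166 and 176 in torpor and between 101 and 120 afterwards (log2 difference -0.61, SE 0.15, limma adjusted p = 0.117). Translation initiation factors were lower in 26 of 36, without overlap in 10, with EIF3H at 358 and 378 in torpor and between 241 and 283 in rewarmed spleen. The medians of the respiratory chain and the proteasome stayed below 0 under each scaling, at their nearest -0.047 and -0.013, whereas that of initiation factors reached 0.12. Ribosome biogenesis factors were divided. FBL, the nucleolar methyltransferase, stood at 133 and 126 in torpor and between 76.1 and 100.4 afterwards, but RRN3, which recruits RNA polymerase I, stood at 8.87 and 9.43 against 17.1 to 27.3.

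Chromatin regulators chosen for their long genes lay the other way. This list of 26 modifiers and remodellers was higher in all 26, without overlap in 21, with a median of 0.79 (0.56 to 0.92 with each library left out). EP300, a histone acetyltransferase, stood at 7.10 and 7.74 in torpor, 30.2 and 16.0 in arousal, and 12.7 and 17.6 at 26 h. ASH1L, a histone methyltransferase, stood at 2.58 and 4.01 in torpor and between 6.74 and 14.7 afterwards, and the remodeller CHD9 differed by 1.17. The list was highest in arousal 1. Mediator and elongation factors, which carry signals to RNA polymerase II, were mixed, 11 of 40 lying higher and 6 lower without overlap. MED13L, of the Mediator kinase module, stood at 4.91 and 7.38 in torpor and between 15.7 and 23.0 afterwards, and CCNT1 and AFF1, both of the elongation machinery, differed by 1.39 and 1.56.

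These opposite positions of short and long genes held across the transcriptome. When the 13542 genes were sorted into 10 equal bins by gene span, the length of the annotated gene with its introns, the median difference climbed at each step from -0.22 in the shortest bin (111 bp to 3.45 kb) to 0.50 in the longest (median span 181 kb). In the shortest bin 7.53% of genes were higher without overlap and 21.7% lower, and in the longest 40.7% and 1.77%. The gap between the longest and the shortest bin in each library's levels was -0.59 and -0.13 in torpor, 0.52 and 0.40 in arousal, 0.025 and 0.32 in the winter active state, and -0.33 and -0.29 in summer. All 4 rewarmed libraries therefore lay above both torpor and both summer libraries, winter active 1 least. Ribosomal protein genes have a median span of 3.33 kb in this annotation and the chromatin list 121 kb, so both lists move with this gradient. After the median of each gene's span bin was subtracted, their medians were -0.28 and 0.41. The same subtraction left mitosis genes at -0.66, glucocorticoid-induced genes at 0.72, FOXO and starvation genes at 0.43 and immediate early genes at 0.51. Subtraction also took the median of all genes from 0.10 to 0. Set against all genes, the clock median went from 0.45 to 0.39 and that of the integrated stress response from 0.27 to 0.18. That of B-cell markers went from 0.19 to 0.16, and that of mitosis genes from -0.79 to -0.66. Glucocorticoid, FOXO and immediate early medians went from 0.63, 0.35 and 0.30 to 0.72, 0.43 and 0.51. Gene span goes with transcript length, RNA half-life and the time a polymerase needs to cross a gene, and the part of each, or of RNA quality, in these differences was not tested.

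**Figure D3:**
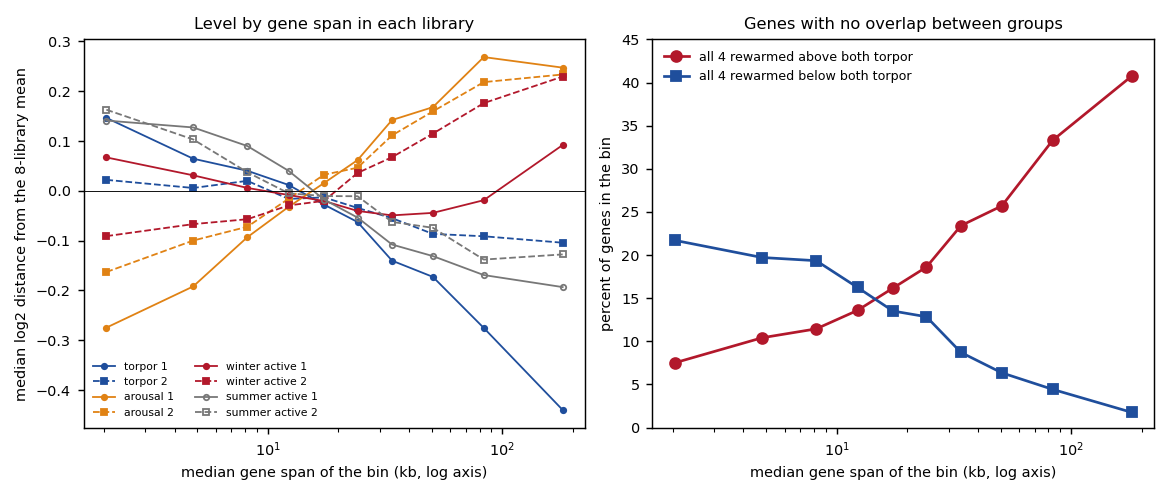
Left, median log2 distance of genes from their 8-library mean in 10 bins of gene span, 1 line per library; right, percent of genes in each bin with all 4 rewarmed libraries above (red) or below (blue) both torpor libraries; both horizontal axes are logarithmic. The share above runs from 7.53% to 40.7% and the share below from 21.7% to 1.77%, and torpor 1 has the steepest fall in level toward long genes.

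Cell division genes lay lower in rewarmed than in torpor spleen. Mitosis genes were lower in all 32 members, without overlap in 23 against a background of 12.5%, with a median of -0.69 (-0.75 to -0.56 with each library left out). CCNA2, the cyclin of S and G2 phase, stood at 18.6 and 17.4 in torpor and between 5.64 and 9.92 afterwards (log2 difference -1.15, SE 0.27, limma adjusted p = 0.113). BIRC5, a passenger of the chromosome, stood at 58.1 and 55.7 in torpor and between 24.8 and 37.5 afterwards. MKI67, the common proliferation marker, did not separate the groups, at 8.27 ± 2.44 (SD, n = 2) in torpor and 6.25 ± 3.32 (n = 4) in rewarmed spleen. S-phase genes were lower in 22 of 31, without overlap in 11, with a median of -0.30 (-0.40 without torpor 2 and -0.13 without torpor 1). TYMS, which makes dTMP, stood at 23.5 and 22.8 in torpor and between 6.34 and 14.2 afterwards, and the clamp loader subunits RFC2 and RFC3 differed by -0.68 and -0.65. Arousal and winter active medians of mitosis genes were alike, -0.68 and -0.66 against torpor. Among p53 targets and survival genes 6 of 22 were higher and 4 lower without overlap.

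**Figure D4:**
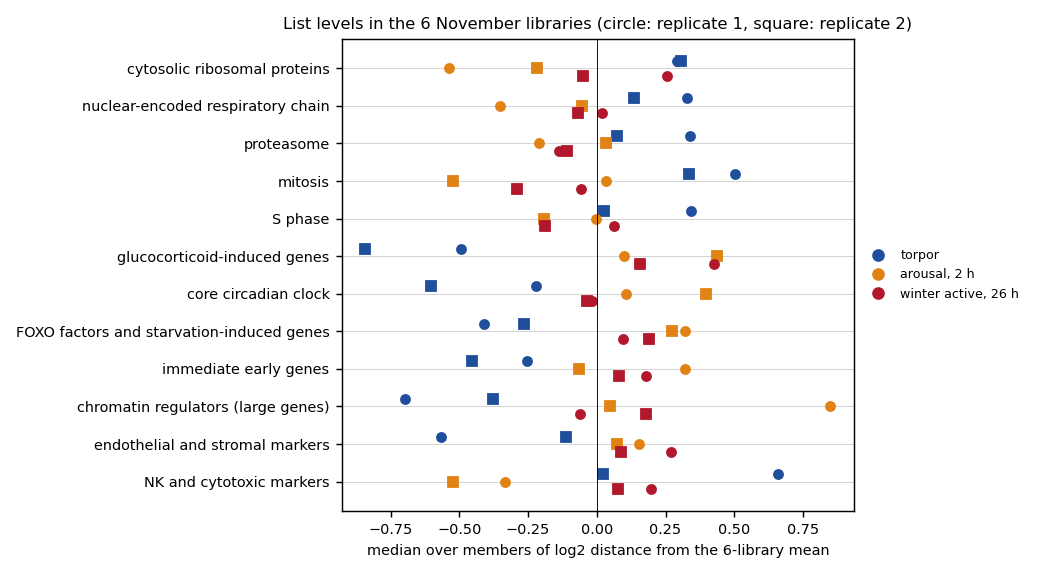
Level of 12 lists in the 6 November libraries, as the median over members of the log2 distance from the 6-library mean; blue is torpor, orange arousal and red winter active, with circles for replicate 1 and squares for replicate 2. Torpor libraries lie right of all rewarmed ones for ribosomal proteins, respiratory chain, proteasome and mitosis genes, and left for the glucocorticoid, clock, FOXO, immediate early, chromatin and endothelial lists; S-phase and NK genes overlap.

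Spleen cell markers were present in every November library, with sums between 946 and 1977 for B-cell and between 16836 and 31385 for macrophage markers. B-cell markers had 5 of 22 members higher without overlap, near the 20.1% of all genes, and none lower. Differences lay above 0 in 14 members and below 0 in 8. The median of this list, 0.29, ran from 0.080 without torpor 1 to 0.50 without arousal 2. CXCR5, the receptor that brings B cells into follicles, stood at 10.8 and 4.64 in torpor against 45.6, 23.7, 51.2 and 32.5, a mean 4.94 times as high. MS4A1 (CD20) stood at 89.2 and 48.2 in torpor and between 127 and 192 afterwards, and PAX5 differed by 1.00. Of T-cell markers 5 of 23 were higher without overlap, also near the share of all genes, and 1 was lower. Their median of 0.13, beside 0.10 for all genes, turned to -0.12 without torpor 2, and 7 members had differences below 0. IL7R, the interleukin 7 receptor of naive and memory T cells, stood at 10.9 and 7.73 in torpor and between 18.5 and 30.9 afterwards, while THEMIS, of T-cell receptor signalling, differed by 0.72. CD3D, CD3E and CD3G were not analysed here.

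NK and cytotoxic markers were lower in 18 of 22, without overlap in 4, against 41.8% and 12.5% of all genes, with a median of -0.57 that moved to -0.16 without torpor 1. After GNLY, the NK receptor KLRB1 stood at 11.4 and 7.58 in torpor against 2.57, 2.58, 7.39 and 0.866, and the granule membrane gene NKG7 at 28.1 and 23.3 against 7.94 to 16.7. The median against torpor was -0.86 in arousal and -0.095 at 26 h. Macrophage markers were lower without overlap in 4 of 25, near the share of all genes. Their differences lay below 0 in 16 members and above 0 in 9, the highest at 0.60. CD68, an endosomal glycoprotein of macrophages, stood at 313 and 255 in torpor and between 92.5 and 211 afterwards, and the complement gene C1QA at 7835 and 7117 against 3756 to 4818. The macrophage median of -0.15 changed sign with column totals of 1000000 and without arousal 2. Plasma cell markers were divided, 3 of 13 on each side, with PRDM1, the regulator of the fate, at 0.83 and the secretory genes SSR4 and TXNDC5 at -0.68 and -0.55.

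Interferon-stimulated genes did not follow the state, with list levels of -0.12 and 0.074 in torpor, -0.082 and -0.45 in arousal, and 0.63 and -0.11 at 26 h. Arousal 2 was the lowest and winter active 1 the highest, and the other 4 lay close together. The pooled median against torpor was 0.058, and -0.24 without winter active 1. Of 39 members, 7 were higher without overlap, near the 20.1% of all genes, and none lower. Differences lay above 0 in 21 members and below 0 in 18, the lowest at -0.78. IFIT1, an antiviral RNA-binding protein, stood at 15.1 and 6.23 in torpor, 21.4 and 19.8 in arousal, and 38.1 and 25.0 at 26 h. EIF2AK2, the RNA-activated kinase PKR, stood at 2.29 and 3.18 in torpor and between 4.86 and 7.46 afterwards, and IFIT5 differed by 0.69. The summed level of the list was 2766 in winter active 1 and between 1064 and 1822 in the other 5 November libraries. Antigen presentation genes had 5 of 21 lower and 2 higher without overlap, with the immunoproteasome subunit PSMB10 at 262 and 206 in torpor and between 126 and 191 afterwards. The activator subunit PSME1 and RFXANK, a regulator of MHC class II, differed by -0.54 and -0.65. Inflammatory and NF-kB feedback genes were higher in 17 of 21, with a median of 0.40 that moved to 0.16 without torpor 2. Without overlap 3 were higher, a share below the 20.1% of all genes, and 1 was lower. NFKBIZ stood at 53.1 and 52.9 in torpor and between 86.5 and 138 afterwards. BIRC3 and REL differed by 0.79 and 0.99, BIRC3 with overlapping groups.

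Vessel and stroma genes lay higher after torpor. Endothelial and stromal markers were higher in 25 of 31, without overlap in 12 and none below, with a median of 0.56 that moved to 0.24 without torpor 1. CDH5, the endothelial cadherin, stood at 8.22 and 10.3 in torpor against 26.4, 19.2, 33.3 and 25.2 (log2 difference 1.38, SE 0.24, limma adjusted p = 0.105). MYH11, smooth muscle myosin, stood at 22.9 and 25.0 in torpor and between 44.1 and 66.7 afterwards, and COL4A2, a basement membrane collagen, differed by 0.74. Genes of this list are long (median span 35.9 kb). Set against all genes, the median was 0.45 before span bin medians were subtracted and 0.26 after. Platelet and megakaryocyte markers were lower in 16 of 20, but in none without overlap. Their median of -0.60 moved to -0.088 without torpor 1. VWF and MYLK, which vessels also express, lay higher without overlap, by 0.64 and 0.78.

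Erythroid markers were far below their summer level in all November libraries. Their summed level was 455 and 325 in torpor, 217 and 216 in arousal, and 318 and 199 in the winter active state, against 6969 and 10397 in summer. Of 27 members, 9 were lower and 1 higher without overlap. ALAS2, the erythroid enzyme that starts heme synthesis, stood at 32.6 and 33.7 in torpor, 0.042 and 0.941 in arousal, and 23.0 and 0.218 at 26 h. HBM, an alpha-like globin, stood at 24.5 and 25.5 in torpor and 17.0 in winter active 1, and was listed at 0 in arousal 1 and winter active 2. These red cell genes were thus lowest in both arousal libraries and in 1 of the 2 winter active ones, and winter active 1 lay between them and torpor. HEMGN, another red cell gene, stood at 2.78 and 1.59 in torpor and at most 0.806 afterwards.

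Markers of other cells varied widely between single libraries. Hepatocyte markers summed to 24844 in arousal 2, 1601 in arousal 1, 1308 in torpor 1 and at most 244.8 in the other 3 November libraries, and no member of 21 separated the groups. Without arousal 2 their median turned from 0.87 to -0.57. Pancreatic markers summed to 2154 in torpor 1, 476 in torpor 2 and 1171 in arousal 2, against 42.2 to 182 in the others. INS stood at 201 in torpor 1 and at most 3.66 elsewhere. All 15 pancreatic members tested lay lower in rewarmed spleen, with a median of -1.96 (-2.89 without torpor 2 and -1.11 without torpor 1). Neutrophil markers summed to 14755 in torpor 1 and between 1326 and 4283 in the other 5, and their median of -1.15 turned to 0.084 without torpor 1. S100A8, a neutrophil alarmin, stood at 3214 in torpor 1 and 357 in torpor 2. Adipocyte markers summed to between 862 and 1540, highest in arousal 2, and gastric and squamous epithelial markers to 2393 in winter active 2 against 170 to 929. Members of the adipocyte list were higher in 14 of 16, with a median of 0.45 (0.12 to 0.76 with each library left out). No member of these 5 lists lay without overlap in either direction. The part of such cells in the results above was not tested. Libraries were left out 1 at a time, and those that remained also held such transcripts. The medians of the ribosomal protein, mitosis, glucocorticoid, FOXO, clock, immediate early and chromatin lists kept their sign without either torpor 1 or arousal 2. Without torpor 1 the NK, platelet, endothelial and S-phase medians moved from -0.57, -0.60, 0.56 and -0.30 to -0.16, -0.088, 0.24 and -0.13.

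**Figure D5:**
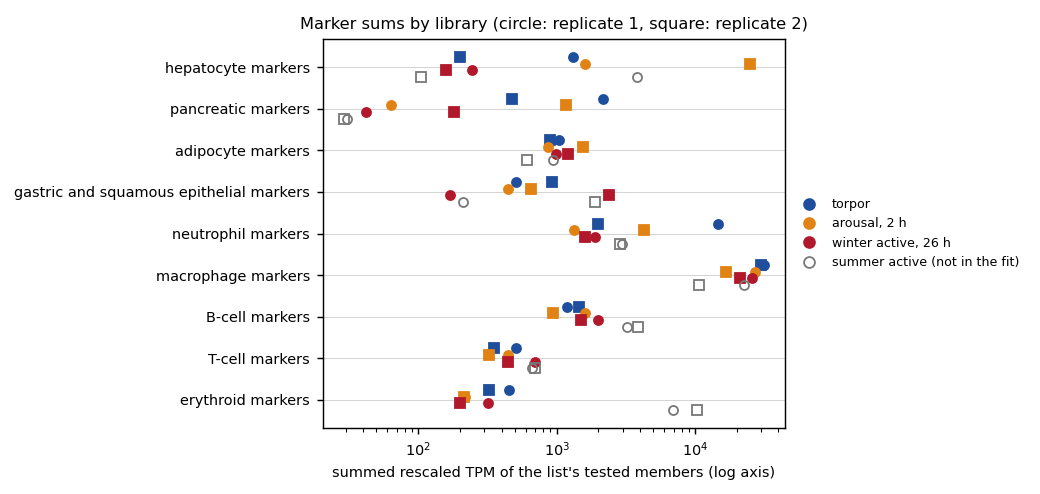
Summed rescaled TPM of the tested members of 9 marker lists in all 8 libraries, on a logarithmic axis; circles are replicate 1, squares replicate 2, and open grey symbols summer active. Hepatocyte markers reach 24844 in arousal 2 and neutrophil markers 14755 in torpor 1, while macrophage, B-cell and T-cell sums vary less between libraries.

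Winter active and arousal spleens were compared with each other last. Across log2 values arousal 1 correlated at 0.951 and 0.945 with the winter active libraries and arousal 2 at 0.905 and 0.910, while torpor 2 correlated with them at 0.958 and 0.956. Winter active against arousal gave 0% of genes called (limma smallest adjusted p = 0.427), with 516 genes above and 356 below at an unadjusted p under 0.05. Genes were called only when arousal 1 was left out, which made arousal 2, with its hepatocyte sum of 24844, the lone arousal library. Those calls are therefore not read as differences between the times. Both differences share the torpor libraries, so their medians stand side by side as values only. For FOXO genes they were 0.58 in arousal and 0.42 at 26 h, for clock genes 0.62 and 0.45, for glucocorticoid-induced genes 0.99 and 0.74, for chromatin regulators 0.99 and 0.54, and for the respiratory chain -0.47 and -0.21. Mitosis genes (-0.68 and -0.66) and the proteasome (-0.29 and -0.28) differed little between the times. Of the genes with all 4 rewarmed libraries above torpor, 67.2% had a lower mean at 26 h than in arousal, against 54.4% of all genes tested. Of those below torpor, 58.8% had a higher mean at 26 h, against 45.6%. PDK4 had the largest such step among the genes described above outside the organ markers and red cell genes, -0.80 from arousal to 26 h (limma adjusted p = 0.744). Genes with both arousal libraries above and both winter active libraries below torpor numbered 134 (0.99%), and the reverse pattern 128 (0.945%).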

How the data were processed

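Total RNA of whole spleen was sequenced on Illumina libraries, per the labels. Per the submitters' processing notes, kallisto 0.46.2 and sleuth 0.30.0 were used. The reference, the summing to genes and the scaling are not given in the labels. The authors deposited 1 value per gene and library, a TPM signal rescaled so that columns do not sum to 1000000. It holds no counts, so depth and counting error are unknown. The test was planned for TPM and used unchanged.

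All 19652 gene identifiers matched the annotation of assembly mRhiFer1_v1.p, used for names and gene spans only, since no build is named for the values. Of these, 3335 carry only a locus number. A planned description by coding length was replaced by gene span, and one of promoter motifs was not made.

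The 13542 genes whose 8-library mean reached 1 entered limma 3.58.1 (R 4.3.3; lmFit, eBayes with a trend) as log2(value + 1). The fit held the 6 November libraries, torpor against rewarmed, with 4 residual and 3.12 prior degrees of freedom. Winter active against arousal came from a fit of 3 states. The script was tested on simulated data.

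Named genes were the 12 in each direction with the smallest p, no overlap, a symbol and a mean in the higher group of 5 or more, the 3 members of smallest p in each of 39 lists, and 26 fixed genes. A few genes the rule took are not reported here. The members and lists were chosen with earlier results of these data known, so they are descriptions, and other genes are marked as chosen after their values were seen. The alternatives changed the pseudocount (0.1), the filter (none, or a mean of 5), the scaling, the variance model (robust eBayes), the replicate block, the states in the fit and each library in turn. Gene span centring, and the alternatives for winter active against arousal, were added after seeing the data.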

Additional observations from a re-analysis of the deposited data

Results flagged for a closer look

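Of 192 results looked at, 8 had 1 of the 4 rewarmed libraries far from the other 3, with a gap whose share of the whole range exceeded Dixon's critical value for 4 samples. Chance alone puts about 1 in 20 groups past that limit, more than were found here. The 5 from arousal 1 were RBM3 at 312.8 against 459 to 470 (gap 0.943 of the range), EIF2S2, a subunit of eIF2, at 114 against 130 to 133 (0.861), NR1D1 at 11.8 against 20.5 to 22.6 (0.849), DNAJB1 at 76.1 against 46.0 to 50.1 (0.831) and CHD9 at 16.4 against 9.83 to 10.6 (0.850). The 3 from winter active 1 were RFC2 at 92.0 against 74.7 to 77.1 (0.847), CEBPG at 9.50 against 14.8 to 15.4 (0.908) and the level of the erythroid list at 0.218 against -0.256 to -0.193 (0.867). The difference of RBM3 from torpor was -0.19, and -0.048 without arousal 1. RFC2, NR1D1, EIF2S2, CHD9 and CEBPG lay on one side of torpor in all 4 rewarmed libraries with that library included.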

How the results depend on the processing

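In 17 of the 18 other settings limma called no gene in either direction, with a smallest adjusted p between 0.0675 and 0.288. With no filter it called 5 genes lower of 18167, with differences from -1.66 to -0.61, among them CCL1 (-0.74, adjusted p = 0.0127). The genes with all 4 rewarmed libraries above and below torpor numbered 4458 and 434 with column totals of 1000000, 4490 and 409 when other-tissue and erythroid genes were left out first, and 1637 above after quantile normalization. Without 1 library each they ran from 2938 to 4884 above and from 1832 to 3096 below, where fewer libraries make the condition easier to meet. Without torpor replicate 1 the count below was 2728, and without torpor replicate 2 the counts were 4884 and 3096. Calls between the rewarmed states ran from 0 to 156, the 156 without arousal replicate 1.

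Differences changed sign in TXNIP (-0.00184) and CLK4 (-0.020) after median-of-ratios rescaling, in RBM3 with column totals of 1000000 (0.088, and 0.10 without other-tissue and erythroid genes), in HMOX1 (0.028), RBM3 (0.029) and CLK4 (-0.070) after quantile normalization and in CLK4 (-0.089) after gene span centring. With each library left out, they ran from -3.12 to 0.042 in S100A8, -0.021 to 0.44 in HSPA8 and -3.33 to 0.10 in MPO, where leaving out torpor replicate 1 turned the sign. They ran from -0.046 to 0.27 in TXNIP, -0.046 to 1.10 in TSC22D3, -0.39 to 0.76 in CLK1, -0.12 to 0.49 in HSPH1 and -0.31 to 1.00 in BMAL1, where leaving out torpor replicate 2 did, and HSPH1 also turned (-0.029) without arousal replicate 1. The cause was not tested. With the replicate block 0 genes were called (smallest adjusted p = 0.121; 2099 higher and 806 lower at an unadjusted p under 0.05). Deviations of same-numbered libraries correlated at -0.19, 0.32 and 0.12 between states. The labels do not say whether the numbers pair libraries. These correlations cannot decide it, since each rests on 1 pair of libraries per state. Without a torpor library the lone one is assumed to vary like the rewarmed group.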

Other observations

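Some of the families read from shared symbol prefixes, chosen after their values were seen and so described without a test, are given here by their counts. Zinc finger genes named ZNF were higher without overlap in 82 of 221 tested members and lower in 16 (median 0.28, against 0.10 for all genes), and ZBTB factors in 23 of 39 with 1 lower (median 0.56). Krüppel-like factors were higher without overlap in 8 of 15 (median 0.48), led by KLF15, a glucocorticoid target, at 3.52 and 2.36 in torpor, 4.46 and 28.9 in arousal, and 18.0 and 20.5 at 26 h. The 1 KLF gene lower without overlap was the erythroid factor KLF1 (-1.06). Kelch-like adaptors of ubiquitin ligases were higher without overlap in 15 of 26 (median 0.51), with KLHL24 at 7.67 and 5.83 in torpor and between 12.6 and 19.6 afterwards. Deubiquitinases named USP were higher in 16 of 45 and lower in 2 (median 0.28). F-box genes named FBXO were higher in 13 of 26 and lower in 2 (median 0.28).

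Phosphodiesterases, which end cyclic nucleotide signals, were higher without overlap in 10 of 16 (median 0.59), with PDE4D at 0.948 and 1.05 in torpor and between 2.46 and 3.34 in rewarmed spleen. Collagen chains were higher in 11 of 26 and lower in none (median 0.59), with COL15A1 at 5.63 and 5.21 in torpor and between 8.19 and 15.7 afterwards. Semaphorins, guidance signals of vessels and immune cells, were higher in 7 of 16 (median 0.69). Mitochondrial ribosomal proteins lay lower, without overlap in 23 of 49 of the large subunit (median -0.34) and 13 of 28 of the small subunit (median -0.29). The LSM proteins of mRNA decay and splicing were lower in 9 of 13 and higher in 1 (median -0.44), with LSM5 at 19.3 and 14.0 in torpor and between 8.93 and 13.1 afterwards. Subtracting span bin medians puts the median of all genes at 0. The medians were then 0.24 for KLHL, 0.14 for USP and 0.23 for collagens. The other medians described here were 0.46 for ZBTB, 0.40 for semaphorins, 0.37 for KLF, 0.35 for phosphodiesterases, 0.24 for FBXO and 0.22 for ZNF. For the large and small mitochondrial subunits they were -0.30 and -0.23, and for LSM proteins -0.30. Set against all genes before the subtraction, the medians were 0.17 for both ZNF and FBXO, 0.37 for KLF and 0.58 for semaphorins.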
